A study of Mus musculus with 16 samples.

Results

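The actin cytoskeleton and migration genes examined here are 48 listed genes that build, branch, cut, crosslink or steer actin filaments, together with the intermediate filament gene Vim and the lamina gene Lmna. They form a list of names, with no measured value in its rule although earlier results of these data were known when it was drawn up, and were matched to the Entrez gene numbers of the count files. Of the 48 listed genes, 47 were found among the 13652 genes of the files, and Tmsb4x was not analysed here. The gene listed as Diap1 was matched by synonym to Diaph1. Their transcripts were counted by RNA sequencing in AML246, mouse acute myeloid leukaemia cells kept in medium with the cytokine IL-3, over a course of 24 days with doxycycline (Dox, 0.1 µg/mL) present from day 0 until its withdrawal at day 12. The sources used here do not give the construct that Dox controls, its promoter or the number of clones.

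There were 16 libraries in 8 groups of 2 replicates, A and B. In the order of the course, Day0 is untreated, Day4 and Day8 are 4 and 8 days on Dox, Day12M and Day12 are 12 days on Dox, and Day12-4, Day12-8 and Day12-12 are 12 days on Dox followed by 4, 8 and 12 days without it. The Day12M cells were sorted as high for Cd11b, the myeloid surface integrin encoded by Itgam, and the other 7 groups are total viable cells. All groups come from the same line in the same medium, and the labels do not say whether A and B are separate cultures, so p-values rest on the spread between these samples, some or all of which may be technical.

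Actin monomers polymerise into filaments that are branched by the Arp2/3 complex, elongated by formins and Ena/VASP proteins, cut and capped by cofilin, gelsolin and CapG, and pulled by myosins. The GTPases Rac1, Cdc42 and Rhoa help to set where this happens: exchange factors of the Vav and Dock families load them with GTP, and WASP and the WAVE complex pass the signal on to Arp2/3. Blood cells use forms of these proteins that most other tissues lack, among them Coro1a, Hcls1, Was, Nckap1l, Fermt3, Lsp1, Dock2 and Vav1, and need them for crawling, phagocytosis and adhesion.

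Total counts ran from 12962801 to 26509803 per library. Levels are given as CPM, counts scaled to a common library size with TMM factors. Where genes are compared with each other, levels are given as RPKM, which also divides by gene length. Mitochondrial transcripts took 7.36% and 6.35% of counts in the Day0 libraries and 2.02% to 3.59% in the other 14. Spi1, which encodes the myeloid transcription factor PU.1, was at 226 and 219 CPM in Day12 cells, against 66.3 and 56.8 CPM in Day0 cells, and was at 54.8 and 37.2 CPM in Day12-12 cells. In Day12-12 against Day0 cells Spi1 was lower by 0.42 on the log2 scale (edgeR adjusted p = 0.035), by 0.73 without Day12-12 replicate A, and not called without replicate B (-0.09, edgeR adjusted p = 0.54). Itgam was at 719.5 and 669.5 CPM in Day12 cells, against 1.41 and 1.77 CPM in Day0 cells.

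Replicate A of the Day12-12 group stood apart from the other libraries in a way that followed gene length. Its level relative to replicate B, as a median log2 ratio over genes at a mean of at least 10 CPM, was 0.44 in the shortest of 4 equal classes of gene length and -0.47 in the longest, a span of 0.91. The same span was between -0.02 and 0.22 in the other 7 groups. Set against the mean of the Day12-8 group, the span was 0.92 for Day12-12 replicate A and 0.03 for Day12-12 replicate B. Long members such as Flna were low and short members such as Tmsb10 were high in replicate A, so counts of calls on Day12-12 cells are given with and without it, as are the fold changes the text turns on. The levels of its 2 libraries are printed one by one, A first. What the length trend contributes to single members was not tested beyond this.

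**Figure D1:**
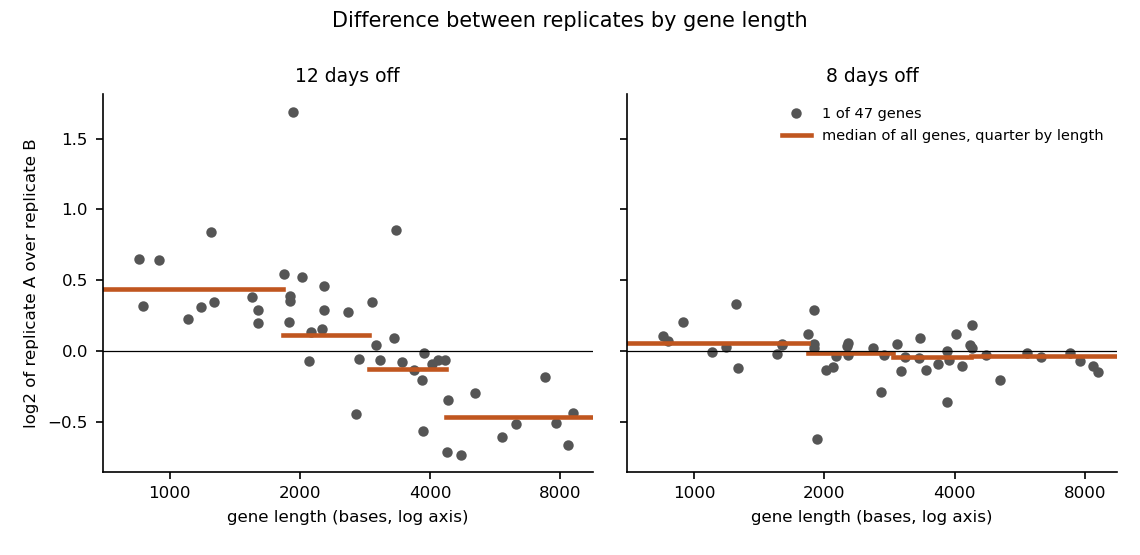
Each grey point is 1 of the 47 genes, with its gene length in bases on a log axis and the log2 ratio of replicate A over replicate B on the vertical axis, for cells 12 days off Dox on the left and 8 days off on the right. Orange bars are medians of all genes at a mean of at least 10 CPM in 4 equal length classes: they step down from 0.44 to -0.47 at 12 days off and lie between 0.06 and -0.04 at 8 days off.

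Markers of other cell types moved over the same course. The neutrophil markers, 8 of 8 in the files, summed to 603 to 623 CPM in Day12 cells, against 10.9 to 21.0 CPM in Day0 cells; at Day4 the sum was 2222 to 2845 CPM, and in Day12-12 cells 2.36 to 3.10 CPM. The eosinophil markers, 6 of 6, summed to 8178 and 9115 CPM in Day12 cells, against 5148 and 2061 CPM in Day0 cells, and to 209.5 and 250.1 CPM in Day4 cells. In Day4 cells Epx and Prg2 had means of 140.9 and 29.4 CPM, against 3433 and 151.3 CPM in Day0 cells. Siglecf and Alox15 were higher there, at 34.4 and 10.2 CPM, against 4.06 and 0.363 CPM. Il5ra and Ccr3 were at 14.5 and 0.49 CPM, against 14.8 and 0.36 CPM. The progenitor markers Kit, Cd34, Mpo and Myb, 4 of 6, summed to 1313 and 1299 CPM in Day12 cells, against 1926 and 1997 CPM in Day0 cells. They did not move together. Mpo and Myb fell, from means of 601.5 and 1208 CPM in Day0 to 30.3 and 824 CPM in Day12 cells. Kit and Cd34 rose, from means of 124.6 and 27.3 CPM to 315.5 and 136.2 CPM. Sums for the macrophage and monocyte list (5 of 9) were 1443 and 1504 CPM in Day12 cells and 1261 and 1364 CPM in Day0 cells. Most of this sum was Ly6c2, with means of 1378 CPM in Day12 and 1283 CPM in Day0 cells. Csf1r, Adgre1 and Ccr2 had means of 12.2, 42.7 and 34.8 CPM in Day12 cells, against 1.01, 4.2 and 18.4 CPM in Day0 cells. Cd68 was at 6.28 and 6.07 CPM. For the megakaryocyte and platelet list (4 of 6) the sums were 808 and 838 CPM in Day12 cells and 304.5 and 199.5 CPM in Day0 cells. Most of this was the integrin genes Itga2b and Itgb3, with means of 634.5 and 180.9 CPM in Day12 and 210.3 and 36.8 CPM in Day0 cells. Gp1ba and Gp9 were at 5.16 and 2.37 CPM, against 4.89 and 0.0272 CPM. The basophil and mast cell list (5 of 7) summed to 1882 and 1896 CPM in Day12 cells, against 2897 and 2306 CPM in Day0 cells, and to 548 and 613 CPM in Day4 cells. Cpa3 and Hdc were lower in Day12 cells, with means of 1183 and 150.1 CPM, against 1829 and 239.0 CPM in Day0 cells. Mcpt8, Prss34 and Gata2 were not, with means of 26.4, 6.43 and 523 CPM, against 18.7, 2.89 and 512 CPM. Of the stromal list Pdgfrb and Acta2 (2 of 7) were measured and of the endothelial list Pecam1 (1 of 4), and their sums were 215 and 218 CPM and 1268 and 1213 CPM in Day12 cells, against 130.0 and 101 CPM and 539 and 566 CPM in Day0 cells. The T and NK cell genes Cd3g and Nkg7 (2 of 5) summed to 177 and 168 CPM in Day12 cells, against 223 and 314 CPM in Day0 cells. The erythroid gene Klf1 (1 of 4) reached at most 6.63 CPM and the B cell gene Cd79a (1 of 5) at most 1.02 CPM in any library; the other genes of these lists were not analysed here. The part of these shifts in the results was not tested, and in whole-culture RNA fewer cells of a type and less RNA per cell cannot be told apart.

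Upstream sequence was examined because most of the genes moved together over the course. RefSeq (GRCm38.p6) held upstream windows of 250 bases for 41 of the 47 genes, 57 windows in all, with a median GC content of 58.4% against 59.6% over 12979 windows of all genes. The short form GGAAGT, built on the GGAA core that PU.1 and other ETS factors bind, was found on either strand in 42.1% of the members' windows, against 23.4% of all windows. By gene it was in 21 of the 41 members, against 27.0% of all genes with a window. Of these 21, Vim fell in Day12 over Day0 cells, Arpc3 was not called and the rest rose. Coro1a, Myo1f, Lsp1, Evl, Myh9 and Dock2, which also rose, had no match or no window. The longer form GAGGAAGT, which contains GGAAGT, was in 5.26% of the members' windows (Vav1, Rhog and Fmnl1), against 2.58% of all windows. The CArG box bound by serum response factor, the classic regulator of actin genes, was in 3.51% of the members' windows (Actg1 and Arpc4), against 1.09% of all windows. A match describes these letters and is not shown to be a binding site. Whether the matches bear on the levels was not tested.

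All 5 windows that hold the longer ETS form or the CArG box are shown, so that both motifs can be read in place. Of their genes, Vav1, Rhog, Fmnl1 and Arpc4 rose on Dox and Actg1 was not called. Each runs 5′ to 3′ on the strand of its gene and ends at the base before the transcript start, with the matched motif in capitals. They lie at chr17:57278850-57279099 (Vav1, plus strand), chr7:102250119-102250368 (Rhog, minus strand), chr11:103170888-103171137 (Fmnl1, plus strand), chr11:120348496-120348745 (Actg1, minus strand) and chr6:113377863-113378112 (Arpc4, plus strand). The match begins 11 bases before the start in Vav1, and on the opposite strand it spans 15 to 8 bases before the start in Rhog and 50 to 43 bases in Fmnl1. The Fmnl1 window precedes a transcript that starts inside the gene. The gene itself begins at chr11:103171004, so this match lies within it. The CArG box spans 90 to 81 bases before the start in Actg1 and 250 to 241 bases in Arpc4.
Vav1: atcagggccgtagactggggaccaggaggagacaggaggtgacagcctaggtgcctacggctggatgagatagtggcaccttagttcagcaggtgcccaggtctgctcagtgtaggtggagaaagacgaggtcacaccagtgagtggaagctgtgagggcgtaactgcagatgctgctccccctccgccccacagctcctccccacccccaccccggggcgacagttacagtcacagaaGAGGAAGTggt
Rhog: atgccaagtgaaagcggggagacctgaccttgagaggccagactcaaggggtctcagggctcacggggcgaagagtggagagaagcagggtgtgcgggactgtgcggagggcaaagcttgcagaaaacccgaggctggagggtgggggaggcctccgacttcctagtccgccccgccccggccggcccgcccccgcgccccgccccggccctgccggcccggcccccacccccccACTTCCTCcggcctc
Fmnl1: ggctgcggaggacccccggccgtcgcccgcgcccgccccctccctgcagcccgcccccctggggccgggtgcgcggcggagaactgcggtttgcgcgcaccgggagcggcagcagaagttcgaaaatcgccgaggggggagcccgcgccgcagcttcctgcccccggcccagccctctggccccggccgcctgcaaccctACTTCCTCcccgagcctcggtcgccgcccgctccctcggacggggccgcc
Actg1: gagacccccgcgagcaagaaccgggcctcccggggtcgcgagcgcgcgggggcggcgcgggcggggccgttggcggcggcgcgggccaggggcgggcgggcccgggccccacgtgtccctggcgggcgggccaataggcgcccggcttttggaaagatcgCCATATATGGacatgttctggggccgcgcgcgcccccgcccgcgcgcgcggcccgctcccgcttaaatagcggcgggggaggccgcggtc
Arpc4: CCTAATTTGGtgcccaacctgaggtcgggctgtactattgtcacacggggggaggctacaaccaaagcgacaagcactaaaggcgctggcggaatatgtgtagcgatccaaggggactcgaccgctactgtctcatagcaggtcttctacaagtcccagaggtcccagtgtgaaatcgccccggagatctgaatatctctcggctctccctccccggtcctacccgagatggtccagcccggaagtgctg

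Most of the actin cytoskeleton genes were higher after 12 days on Dox. In Day12 against Day0 cells, 42 of the 47 rose and 2 fell (edgeR's quasi-likelihood test, Benjamini-Hochberg adjusted p under 0.05 over all genes). Of all genes, 63.4% were called in this comparison, 30.0% higher and 33.4% lower. The median log2 fold change was 1.19 over the 47 genes and -0.07 over all genes, and 29 of the 47 rose over 2-fold. Together the 47 genes took 2.24% and 2.21% of all counts in Day12 cells, against 1.15% and 1.08% in Day0 cells. The genes that fell were Tmsb10 and Vim, and Actg1, Arpc3 and Pfn1 were not called. The CPM of the groups did not overlap for 45 of the 47 genes, as for 85.9% of all genes.

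After withdrawal most of them were lower again. In Day12-12 against Day12 cells, 38 of the 47 fell and 2 rose, where 32.4% of all genes were called lower, 32.9% higher and 65.3% in either direction. The median log2 fold change was -0.86 over the 47 genes and 0.00 over all genes. With either Day12-12 library left out, about as many of all genes were called higher as lower too. Without replicate A of the Day12-12 group 43 fell and 2 rose, without replicate B 36 fell and 4 rose, and 36 falls and 2 rises were called in all 3 fits. The CPM did not overlap for 43 of the 47 genes, against 79.3% of all genes. The combination of a rise on Dox and a fall after it was called for 38 of the 47 genes, or 80.9%, against 22.4% of all genes; both comparisons use the Day12 libraries, so the 2 calls are not independent. The 47 genes took 1.30% and 1.26% of counts in Day12-12 cells.

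**Figure D2:**
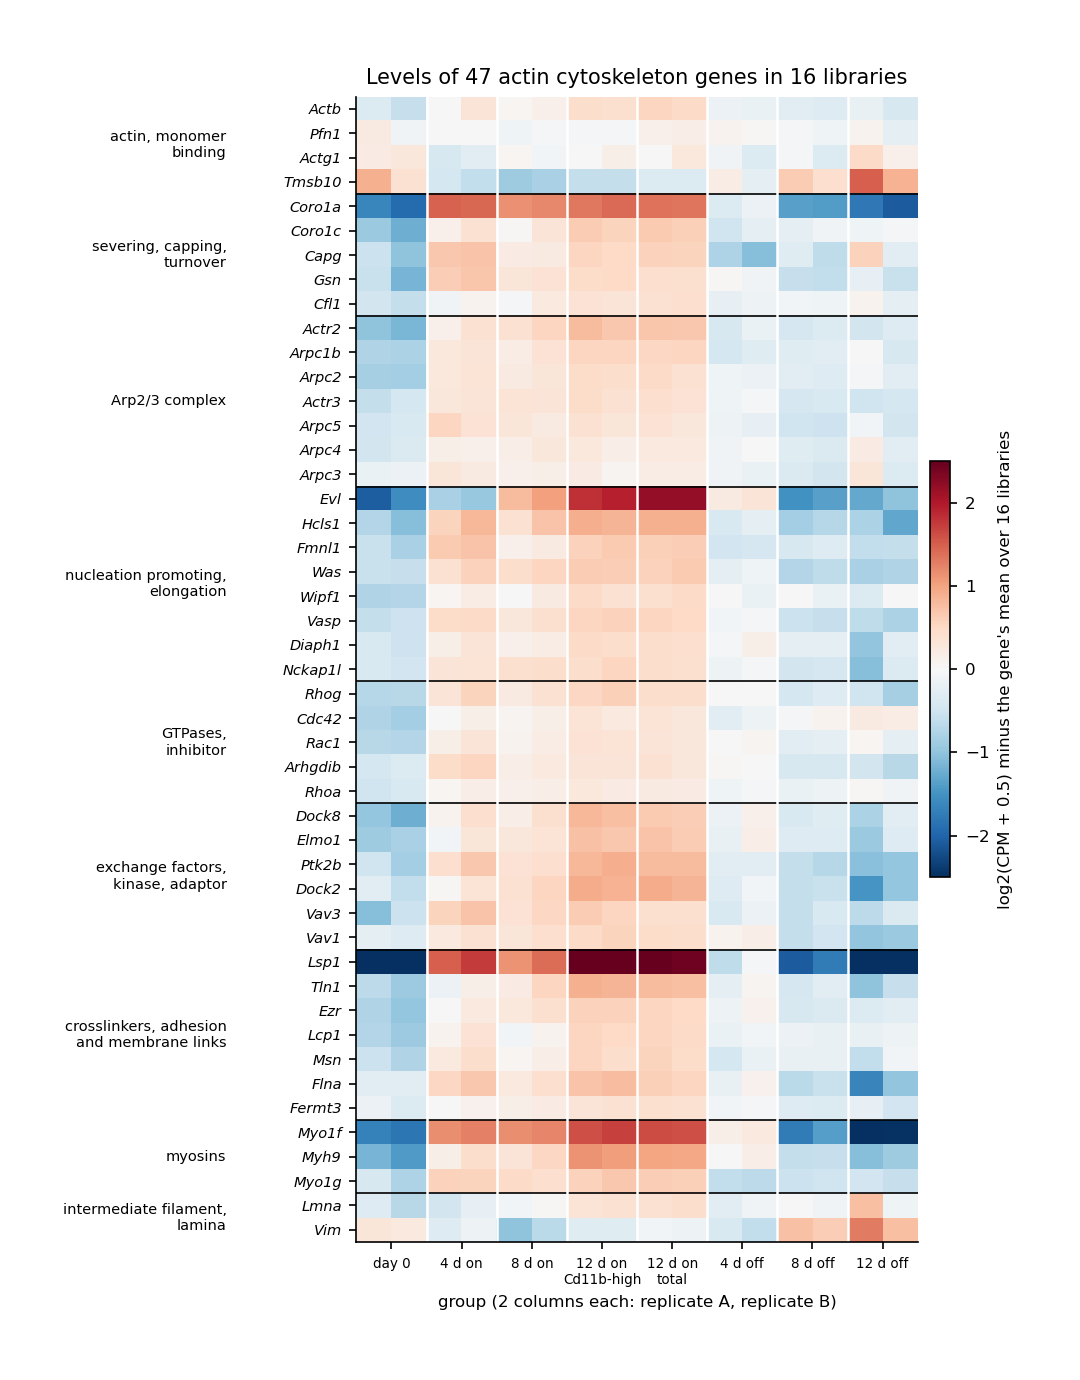
Rows are the 47 genes by role and columns the 16 libraries in the order of the course, replicate A left of B; colour is log2(CPM + 0.5) minus the gene's mean over the 16 libraries, and colours saturate at the ends of the bar. Most rows are blue at day 0, red from 4 to 12 days on Dox and pale or blue after withdrawal, while Tmsb10 and Vim run the other way.

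**Figure D3:**
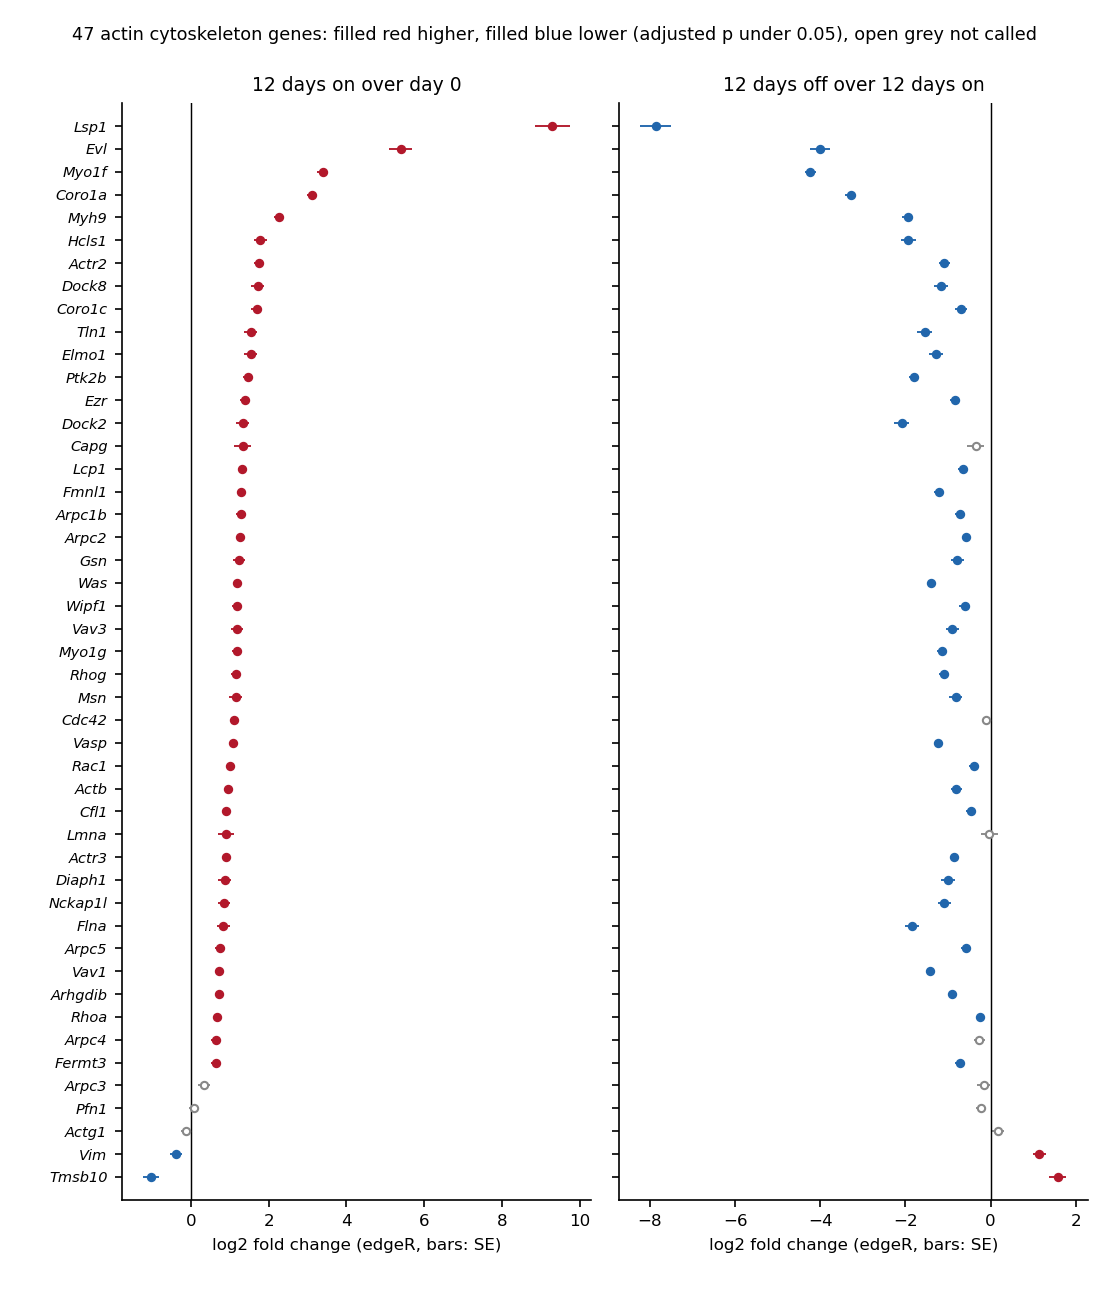
Log2 fold changes with standard errors for the 47 genes, 12 days on Dox over day 0 on the left and 12 days off over 12 days on at the right, sorted by the left panel. On the left 42 points are filled red (higher) and 2 filled blue (lower), on the right 2 are red and 38 blue, and open grey points were not called.

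Of the cytoplasmic actins, the beta form rose on Dox and the gamma form was not called. Actb, the gene of beta-actin, was at 2830 and 2723 CPM in Day12 cells, against 1539 and 1299 CPM in Day0 cells, a log2 fold change of 0.97 ± 0.12 (SE; edgeR adjusted p = 7.2e-06, Benjamini-Hochberg). It was at 1706 and 1478 CPM in Day12-12 cells, which overlap the Day0 libraries. Actg1, the gene of gamma-actin, was at 43.3 and 52.0 CPM in Day12 cells, against 50.1 and 53.1 CPM in Day0 cells (log2 fold change -0.11 ± 0.15). Actg1 was lower than in Day0 cells at Day4, with 32.8 and 36.2 CPM (edgeR adjusted p = 0.0032), and at 4 and 8 days off (edgeR adjusted p = 0.022 and 0.031). Per length, Actb had the highest mean of the 47 genes, at 1060 RPKM over the 16 libraries, and the ratio of Actb to Actg1 in RPKM was 65.6 and 52.5 in Day12 cells, against 30.8 and 24.5 in Day0 cells. The sources used here do not say how reads matching several places were counted, so the levels of genes with near-identical copies, such as Actb, Actg1, Cfl1, Pfn1 and Tmsb10, are uncertain.

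The monomer-binding genes did not follow Actb. Pfn1, encoding profilin, which delivers monomers to growing ends, was the flattest of the 47 genes, with group means between 566 and 659.7 CPM, and was the only one not called in the test over all 8 groups (edgeR adjusted p = 0.49), where 83.8% of all genes were called. Tmsb10, encoding a thymosin that holds monomers, was at 17.3 CPM in both Day12 libraries, against 41.0 and 28.7 CPM in Day0 cells, a fall of 1.01 ± 0.205 on the log2 scale (edgeR adjusted p = 0.00054). In Day12-12 cells it was at 63.0 and 40.5 CPM, a rise over Day12 cells of 1.58 ± 0.204 on the log2 scale, and of 1.22 without replicate A.

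All 5 genes of filament severing, capping and turnover rose on Dox, and Coro1a moved furthest. Coro1a, encoding the leukocyte coronin (chr7:126699774-126704816), ran through the course at 99.0 and 81.3 CPM in Day0, 861 and 831 in Day4, 681 and 709 in Day8, 787 and 779 in Day12, 241 and 277 in Day12-4, 121 and 117 in Day12-8 and 88.4 and 72.5 CPM in Day12-12 cells. Both Day4 libraries were already above both Day12 libraries, and most of the fall lay between Day12 and Day12-4. Its log2 fold change was 3.12 ± 0.13 in Day12 over Day0 cells (edgeR adjusted p = 1.1e-10) and -3.28 ± 0.13 in Day12-12 over Day12 cells (edgeR adjusted p = 7.2e-11), and -3.43 without replicate A. Coro1c, the more widely expressed coronin, was at 201 and 195 CPM in Day12 cells, against 67.5 and 54.5 CPM in Day0 cells. At 119.5 and 126 CPM in Day12-12 cells it stayed above Day0, with a log2 fold change of 1.01 ± 0.14 (edgeR adjusted p = 5.0e-05) and of 1.05 without replicate A. The ratio of Coro1a to Coro1c in RPKM was 1.59 and 1.23 in Day12-12 cells, against 3.16 and 3.21 in Day0 cells, and stood at 8.42 and 8.59 in Day12 cells.

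Cfl1, Gsn and Capg, the genes of cofilin, gelsolin and CapG, rose by 0.92, 1.24 and 1.33 on the log2 scale in Day12 over Day0 cells. Capg was at 85.3 and 83.9 CPM in Day12 cells, against 38.8 and 28.1 CPM in Day0 cells, and had fallen to 32.9 and 26.8 CPM in Day12-4 cells. In Day12-12 cells it was at 85.1 CPM in replicate A and 47.4 CPM in replicate B, the widest gap between Day12-12 replicates in this role as a ratio. Its log2 fold change in Day12-12 over Day12 cells was -0.35 and not called with both libraries, and -0.84 without replicate A (edgeR adjusted p = 0.00019).

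Of the 7 subunits of the Arp2/3 complex, 6 rose in Day12 over Day0 cells, by 0.65 to 1.76 on the log2 scale. Actr2, encoding the Arp2 subunit, was at 748 and 743 CPM in Day12 cells, against 232 and 208 CPM in Day0 cells. Actr3, encoding its partner Arp3, was at 957.5 and 919 CPM in Day12 cells, against 471 and 527 CPM in Day0 cells. The subunits therefore did not rise by the same factor. Arpc3 missed the threshold with a log2 fold change of 0.34 ± 0.15 (edgeR adjusted p = 0.059), and was called with RLE size factors, in DESeq2, with a replicate block, with the 4 libraries fitted alone and without Day12-12 replicate A. After withdrawal Actr2, Actr3, Arpc1b, Arpc2 and Arpc5 fell, by 0.57 to 1.08 on the log2 scale with both Day12-12 libraries and by 0.68 to 1.02 without replicate A. Arpc3 and Arpc4 were not called, and without Day12-12 replicate A they fell by 0.53 and 0.51 on the log2 scale. Per length, Arpc1b was the highest subunit, with a mean of 582 RPKM, and Arpc4 the lowest, with 92.15 RPKM.

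All 8 genes that promote nucleation or elongation rose on Dox and fell after it, the falls with either Day12-12 library left out too. Evl, encoding an Ena/VASP protein that guards growing filament ends (chr12:108554681-108688516), was the scarcest gene of the 47 per length, with 266 and 306 reads in Day12 cells, against 3 and 6 reads in Day0 cells. In CPM it rose stepwise, with 0.163 and 0.443 in Day0, 1.08 and 0.928 in Day4, 4.26 and 5.10 in Day8, 12.1 and 12.2 in Day12, 2.715 and 2.97 in Day12-4, 0.470 and 0.574 in Day12-8 and 0.638 and 0.867 in Day12-12 cells. It was one of 3 members called between Day4 and Day8, with a log2 fold change of 2.22 ± 0.24 (edgeR adjusted p = 3.1e-05). Over the 12 days on Dox its log2 fold change was 5.395 ± 0.295 (edgeR adjusted p = 2.1e-09), from very few reads in Day0 cells. Vasp, of the same family and far more abundant, was at 300.0 and 293 CPM in Day12 cells, against 137 and 145 CPM in Day0 cells.

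Hcls1, encoding the cortactin relative of blood cells, was at 154 CPM in both Day12 libraries, against 49.8 and 39.3 CPM in Day0 cells, and at 47.6 and 33.2 CPM in Day12-12 cells. Was, the Wiskott-Aldrich gene, was at 123 and 129.6 CPM in Day12 cells, against 55.45 and 55.0 CPM in Day0 cells. It fell to 46.6 and 48.9 CPM in Day12-12 cells, and its partner Wipf1 to 74.1 and 94.3 CPM, where Wipf1 still lay above its 55.6 and 56.5 CPM in Day0 cells. Nckap1l, a WAVE complex subunit of blood cells, and the formin genes Diaph1 and Fmnl1 rose by 0.85, 0.88 and 1.29 on the log2 scale in Day12 over Day0 cells. Fmnl1 was highest at Day4 with 208 and 218 CPM and was lower at Day8 with 144 and 155 CPM (edgeR adjusted p = 0.0034). It was higher again in Day12 cells, with 201 and 203 CPM (edgeR adjusted p = 0.032 against Day8).

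Rac1, Cdc42, Rhoa, Rhog and Arhgdib all rose on Dox, and all but Cdc42 fell after it. The falls of Rac1 and Rhoa, 0.40 and 0.25 on the log2 scale, were lost without Day12-12 replicate B (log2 fold change -0.23 and -0.15). They were also lost with the 4 libraries compared fitted alone (edgeR adjusted p = 0.099 and 0.19). The Rhoa call was lost with library size alone too (edgeR adjusted p = 0.16), and without either Day12 library. Cdc42 was at 681 and 654 CPM in Day12 cells, against 318 and 299.9 CPM in Day0 cells, a log2 fold change of 1.11 ± 0.10 (edgeR adjusted p = 3.5e-07). It fell to 443 and 496 CPM in Day12-4 cells, against 681 and 654 CPM in Day12 cells, and was at 629.5 and 612 CPM in Day12-12 cells. In Day12-12 against Day12 cells it was not called (log2 fold change -0.10, edgeR adjusted p = 0.38). In Day12-12 over Day0 cells it was higher by 1.01 ± 0.10 on the log2 scale (edgeR adjusted p = 3.5e-06), and by 0.99 without replicate A. Rac1, Rhoa and Rhog rose by 1.02, 0.66 and 1.15 on the log2 scale in Day12 over Day0 cells. Rhog, which acts upstream of Rac through Elmo1 and Dock proteins, returned to 97.3 and 76.4 CPM in Day12-12 cells, around its 83.5 and 84.2 CPM in Day0 cells. Arhgdib, encoding an inhibitor that keeps such GTPases in the cytosol of blood cells, was at 1244 and 1168 CPM in Day12 cells, against 707 and 755 CPM in Day0 cells, and per length was the second most abundant of the 47 genes, with a mean of 904 RPKM.

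All 6 genes of exchange factors, with their kinase and adaptor, rose on Dox and fell after it, and Dock2, Vav1 and Ptk2b ended below their Day0 level. Dock2, the Rac exchange factor of blood cells (chr11:34226815-34783905), was at 328 and 312 CPM in Day12 cells, against 141 and 112 CPM in Day0 cells. In Day12-12 cells it was at 61.8 and 88.3 CPM, a log2 fold change of -0.75 ± 0.17 against Day0 cells (edgeR adjusted p = 0.0019) and of -0.52 without replicate A (edgeR adjusted p = 0.01). Vav1 (chr17:57279100-57329236) was at 298 and 292 CPM in Day12 cells, against 184.5 and 172 CPM in Day0 cells. Its 108 and 113 CPM in Day12-12 cells gave -0.68 ± 0.10 against Day0 cells (edgeR adjusted p = 6.7e-05), and -0.65 without replicate A. Dock8, which loads Cdc42, ended on the other side: it was at 204 and 289 CPM in Day12-12 cells, against 181 and 151 CPM in Day0 cells, a log2 fold change of 0.57 ± 0.16 (edgeR adjusted p = 0.011) and of 0.80 without replicate A. The ratio of Dock2 to Dock8 in RPKM was 0.374 and 0.377 in Day12-12 cells, against 0.961 and 0.911 in Day0 cells, with no other group under 0.508. Vav3, Elmo1 and the adhesion kinase gene Ptk2b rose by 1.19, 1.54 and 1.46 on the log2 scale in Day12 over Day0 cells. The Ptk2b call below Day0, -0.34 on the log2 scale, was lost without either Day12-12 library (edgeR adjusted p = 0.076 without A and 0.055 without B).

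Among crosslinkers and links to membrane and adhesion, all 7 rose on Dox and fell after it. Lsp1, encoding an actin-bundling protein of leukocytes (chr7:142458223-142494868), was near the limit of detection without Dox, with 528 and 572 reads in Day12 cells, against 1 and 0 reads in Day0 cells. The ratio of the summed reads, scaled for library size, was 748, with an exact 95% counting interval of 134 to 29600. It was at 11.6 and 13.95 CPM in Day4, 24.1 and 22.9 in Day12, 2.28 and 3.73 in Day12-4 and 0.147 and 0.0456 CPM in Day12-12 cells, the last from 3 and 1 reads. Tln1, encoding talin, the integrin activator, was at 1664 and 1620 CPM in Day12 cells, against 613 and 512 CPM in Day0 cells, and at 476 and 644 CPM in Day12-12 cells. Flna, encoding the crosslinker filamin A (chrX:74223461-74249854), was at 609 and 591 CPM in Day12 cells, against 337 and 336 CPM in Day0 cells, and fell to 129 and 205 CPM in Day12-12 cells. Its log2 fold change in Day12-12 over Day0 cells was -1.01 ± 0.17 (edgeR adjusted p = 0.0002), and -0.72 without replicate A. Lcp1, Ezr and Msn, encoding plastin, ezrin and moesin, rose by 1.32, 1.38 and 1.15, and the integrin activator gene Fermt3 by 0.64, on the log2 scale in Day12 over Day0 cells.

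The 3 myosin genes rose over 2-fold on Dox and fell over 2-fold after it. Myo1f, a class I myosin of leukocytes that links actin to membranes (chr17:33555707-33607764), was at 350.1 and 344 CPM in Day12 cells, against 34.5 and 31.7 CPM in Day0 cells, a log2 fold change of 3.39 ± 0.13 (edgeR adjusted p = 6.0e-11). It fell to 124 and 133 CPM in Day12-4, 33.2 and 42.6 CPM in Day12-8 and 17.1 and 19.7 CPM in Day12-12 cells. The last values lie below both Day0 libraries, with a log2 fold change of -0.85 ± 0.13 (edgeR adjusted p = 0.0001), and of -0.75 without replicate A. Myo1g, of the same class, changed less, and the ratio of Myo1f to Myo1g in RPKM was 1.09 in both Day12 libraries, against 0.219 and 0.261 in Day0 cells, and 0.115 and 0.141 in Day12-12 cells. Myh9, the heavy chain of the main contractile non-muscle myosin, was at 1854 and 1843 CPM in Day12 cells, against 417 and 349 CPM in Day0 cells, a log2 fold change of 2.27 ± 0.13 (edgeR adjusted p = 4.3e-09).

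The 2 genes of intermediate filament and lamina did not move together. Vim, encoding vimentin, was at 123 and 119.6 CPM in Day12 cells, against 161 and 154 CPM in Day0 cells, and its call (log2 fold change -0.37, edgeR adjusted p = 0.048) was lost with RLE size factors (adjusted p = 0.091), in DESeq2 (adjusted p = 0.089), with genes under a mean of 1 CPM left out (adjusted p = 0.065) and without any single library of the 4 (adjusted p from 0.099 to 0.16). It was at 65.0 and 81.6 CPM in Day8 cells, 218 and 199.8 CPM in Day12-8 cells and 320 and 219 CPM in Day12-12 cells. Against Day12 cells the Day12-12 rise was 1.15 ± 0.16 on the log2 scale (edgeR adjusted p = 1.5e-05), and 0.85 without replicate A. Lmna, encoding lamins A and C of the nuclear lamina, was at 134 and 139.6 CPM in Day12 cells, against 81.9 and 63.4 CPM in Day0 cells. In Day12-12 cells it was at 172 CPM in replicate A and 95.2 CPM in replicate B, on either side of Day12. Its log2 fold change against Day12 cells was -0.52 without replicate A and 0.36 without replicate B, both called, so no direction is given for Day12-12. In Day12-4 cells it was lower, at 84.8 and 95.8 CPM, against 134 and 139.6 CPM in Day12 cells (log2 fold change -0.60, edgeR adjusted p = 0.03), and in Day12-8 cells it was at 102 and 95.7 CPM.

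**Figure D4:**
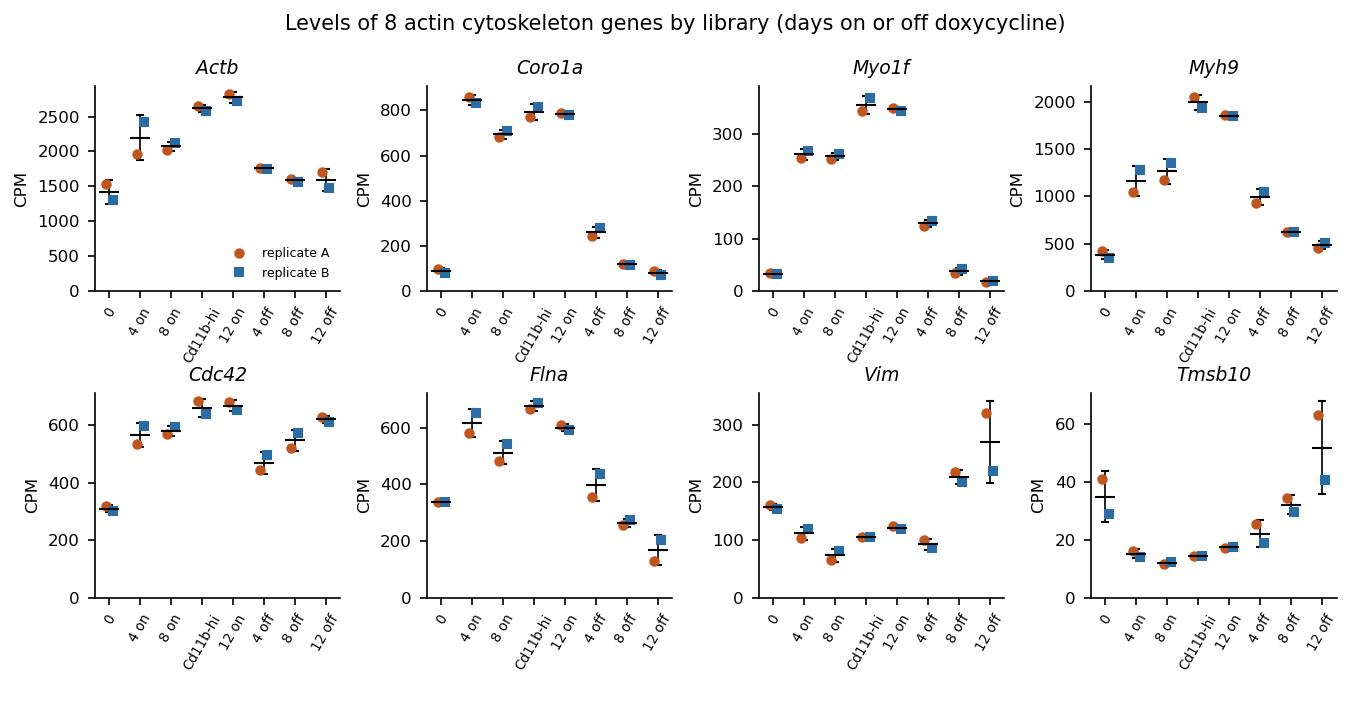
CPM on a linear axis from 0 for 8 genes in the 16 libraries, replicate A as circles and replicate B as squares, with the mean and SD of each group (n = 2) as a black bar and whiskers. Coro1a and Myo1f are highest from 4 days on Dox to 12 days on, Flna ends below day 0, Cdc42 ends near its level on Dox, and Vim and Tmsb10 are highest at 12 days off.

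By summed level, most of the rise came in the first 4 days on Dox and most of the fall in the first 4 days off it. The 47 genes summed to 11240 and 10340 CPM in Day0, 19010 and 21080 in Day4 and 23920 and 23390 CPM in Day12 cells. After withdrawal the sum was 14610 and 15530 CPM in Day12-4 and 13030 and 12270 CPM in Day12-12 cells. In Day4 against Day0 cells 42 of the 47 genes rose and 3 fell (Actg1, Tmsb10 and Vim), with 28.2% of all genes called higher, 31.0% lower and 59.2% in all. The CPM of the groups did not overlap for 45 of the 47 genes, against 81.1% of all genes. In Day8 against Day4 cells Evl rose and Vim and Fmnl1 fell, where 6.78% of all genes were called higher, 7.16% lower and 13.9% in all; CPM did not overlap for 27 of the 47, against 60.5% of all genes.

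In Day12 against Day8 cells 6 rose (Evl, Lsp1, Vim, Myh9, Lcp1 and Fmnl1) and none fell, where 1.82% of all genes were called higher, 0.425% lower and 2.24% in all. At an unadjusted p under 0.05 there were 19 in edgeR, against 2055 of all 13652 genes. DESeq2 called 9 higher and none lower, where it called 366 of all genes higher and 91 lower. CPM did not overlap for 42 of the 47, against 64.0% of all genes. Of these 6 genes, all but Vim had also risen by Day4.

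After withdrawal, 39 fell and none rose in Day12-4 against Day12 cells, where 18.8% of all genes were called lower, 18.0% higher and 36.8% in all. DESeq2 called 42 lower and none higher, where it called 2773 of all 13652 genes lower and 2143 higher. In edgeR 44 had an unadjusted p under 0.05, against 6363 of all genes. CPM did not overlap for any of the 47 genes in this step, against 78.0% of all genes. In Day12-8 against Day12-4 cells 16 fell and Vim rose, with 12.4% of all genes called lower, 11.6% higher and 24.0% in all, and CPM did not overlap for 40 of the 47, against 67.6% of all genes. In Day12-12 against Day12-8 cells 6 fell (Coro1a, Myo1f, Vav1, Flna, Lsp1 and Dock2) and none rose, with 2.18% of all genes called lower, 1.54% higher and 3.71% in all. At an unadjusted p under 0.05 there were 18 in edgeR, against 3573 of all 13652 genes. DESeq2 called 4 higher and 6 lower, where it called 618 of all genes higher and 577 lower. CPM did not overlap for 30 of the 47, against 46.7% of all genes. Without replicate A of the Day12-12 group 2 fell, where 1.07% of all genes were called, and without replicate B 14 fell and 12 rose, where 45.1% of all genes were called; Coro1a and Myo1f fell in all 3 fits.

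Leaving replicate A of the Day12-12 group out of the shared fit, an alternative chosen after seeing the data, also moved counts for steps that do not use it. Without that library 8 genes were called in Day8 against Day4 cells, 14 in Day12 against Day8 cells and 29 in Day12-8 against Day12-4 cells. In the same fit 25.6%, 7.16% and 38.3% of all genes were called in these steps, so the share of the 47 in the first was below that of all genes. The counts called in Day12 and in Day4 against Day0 cells were then 45 each.

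At the end of the course some of the 47 genes had not come back to their start, which also held for many other genes. In Day12-12 against Day0 cells 19 of the 47 were higher and 5 lower, where 21.6% of all genes were called higher, 22.0% lower and 43.6% in all; the median log2 fold change was 0.26 over the 47 genes and 0.00 over all genes. With the 4 libraries compared fitted alone, 966 of all 13652 genes were called higher and 1232 lower. Of the genes higher in the shared fit, Arpc1b, Wipf1, Rac1, Rhoa, Dock8, Ezr and Lmna were not called there (edgeR adjusted p from 0.053 to 0.16). Nor were Tmsb10, Cfl1, Gsn, Arpc4 and Evl (edgeR adjusted p from 0.14 to 0.24). The CPM did not overlap for 27 of the 47 genes, against 61.0% of all genes. More of all genes were called with either Day12-12 library left out than with both, and the most without replicate B. Without replicate A of the Day12-12 group 19 were higher and 8 lower, without replicate B 22 were higher and 6 lower, and with the 4 libraries compared fitted alone 7 were higher and 4 lower. The 14 genes higher in the shared fit and with either Day12-12 library left out were Coro1c, Capg, Arpc1b, Arpc2, Actr2, Wipf1, Rac1, Cdc42, Rhoa, Dock8, Lcp1, Ezr, Vim and Lmna. The 4 lower in each were Dock2, Vav1, Flna and Myo1f. Tmsb10, Cfl1, Gsn and Arpc4 were called higher with both libraries and not without replicate A (edgeR adjusted p from 0.054 to 0.36).

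**Figure D5:**
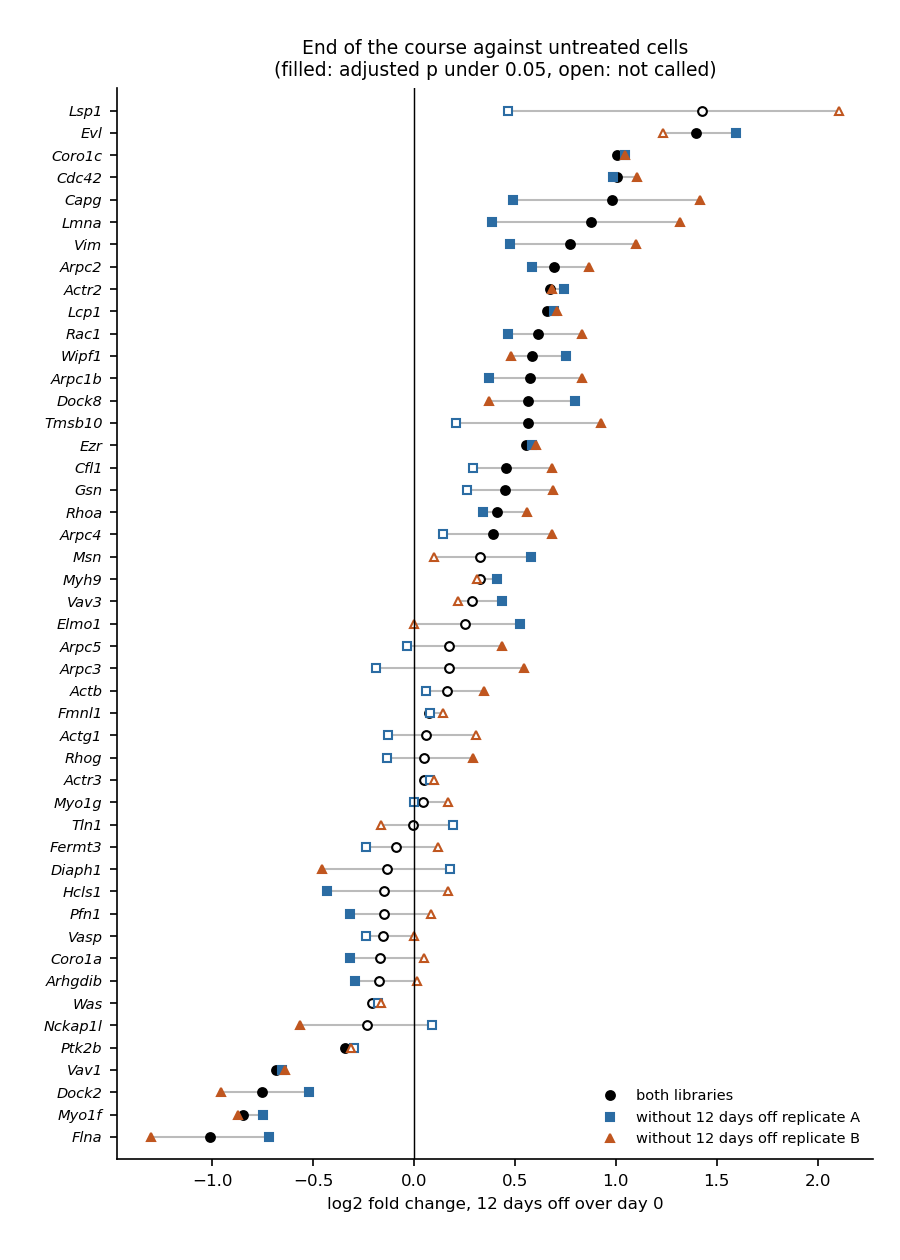
Log2 fold change of the 47 genes in cells 12 days off Dox over day 0, from the fit with both libraries (black circles), without replicate A (blue squares) and without replicate B (orange triangles); filled symbols were called and open ones were not. Flna, Myo1f, Dock2 and Vav1 are filled and below 0 in all 3, and symbols of the same gene lie furthest apart for Lsp1, which had 3 and 1 reads in the Day12-12 libraries.

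Over earlier times off Dox, 31 genes were higher and 3 lower in Day12-4 against Day0 cells, with 37.9% of all genes called, 18.8% higher and 19.1% lower. In Day12-8 against Day0 cells 19 were higher and 1 lower, with 33.1% of all genes called, 16.2% higher and 16.9% lower. The CPM did not overlap for 42 of the 47 genes at 4 days off, against 71.5% of all genes, and for 32 at 8 days off, against 72.6%. Actg1, Tmsb10 and Vim were the lower genes at 4 days off and Actg1 the lower gene at 8 days off. By group means, 25 of the 47 genes were lowest in Day0 cells and 14 in Day12-12 cells, while 24 were highest in Day12M cells, 12 in Day12 and 8 in Day4 cells. The highest group mean was a median of 2.51 times the lowest over the 47 genes, and 2.12 times over all genes above 0 in every group.

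By the main test hardly any gene of the files, and none of the 47, differed between cells sorted for high Cd11b and the total cells. In Day12M against Day12 cells 0 of the 47 genes were called in edgeR, where 0.0146% of all genes were called, all of them lower and 0.0% higher. At an unadjusted p under 0.05 in edgeR there were 0 of the 47, against 309 of all 13652 genes. DESeq2 called 0 of the 47, and 15 of all genes. The CPM did not overlap for 22 of the 47 genes, against 41.7% of all genes. The median absolute log2 fold change was 0.04 over the 47 genes and 0.08 over all genes. Lsp1 was at 27.8 and 31.9 CPM in Day12M cells, against 24.1 and 22.9 CPM in Day12 cells, the largest log2 fold change of the 47 in size, at 0.35 ± 0.19. With the 4 libraries fitted alone, Lsp1 was called higher and Pfn1 and Vim lower, where 162 of all 13652 genes were called higher and 156 lower. The total cells include Cd11b-high cells, and Itgam itself was at 884 and 940.4 CPM in Day12M cells, against 719.5 and 669.5 CPM in Day12 cells.

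Among other genes of the actin pathway rises on Dox also outnumbered falls. Of 119 other listed genes of nucleation, turnover, GTPase control, myosins and adhesion, 113 were in the files. In Day12 against Day0 cells 70 rose and 15 fell, with a median log2 fold change of 0.72, where 30.0% of all genes were called higher and 33.4% lower. In Day12-12 against Day12 cells 73 fell and 13 rose, where 32.4% of all genes were called lower and 32.9% higher, and without replicate A 76 fell and 12 rose. The 3 largest rises on Dox at a mean of at least 10 CPM were Dock10, another Cdc42 exchange factor, Vcl, encoding the adhesion protein vinculin, and the myosin gene Myo1d. Dock10 was at 114 and 109 CPM in Day12 cells, against 5.87 and 3.02 CPM in Day0 cells, and Vcl at 155 and 161 CPM in Day12 cells, against 20.3 and 8.56 CPM in Day0 cells. Cttn, encoding cortactin, ran opposite to its blood-cell relative Hcls1: it was at 9.07 and 11.7 CPM in Day12 cells, against 74.0 and 56.2 CPM in Day0 cells, a fall of 2.65 ± 0.17 on the log2 scale (edgeR adjusted p = 8.5e-09). It was at 61.4 and 54.9 CPM in Day12-12 cells. Among called genes at a mean of at least 10 CPM, the next falls on Dox were those of the coronin gene Coro7 and the formin gene Fhod1, by 0.54 and 0.51 on the log2 scale.

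In Day12-12 against Day12 cells, at the same minimum level, Dock10, Vcl and Myo1d also had the largest falls, and Cttn, the GTPase gene Rhoq and the WAVE complex gene Abi2 the largest rises, and all 6 were called with either Day12-12 library left out. In Day12-12 against Day0 cells 26 of the 113 were higher and 17 lower, where 21.6% of all genes were called higher and 22.0% lower. As above, more of all genes were called with either Day12-12 library left out, and the most without replicate B. Without replicate A 36 were higher and 14 lower, and without replicate B 30 were higher and 31 lower. Coro2a, a further coronin gene, was at 447 and 489 CPM in Day12-12 cells, against 172 and 121 CPM in Day0 cells, and Marcksl1 and the capping gene Capzb were the next highest. The formin gene Daam2 and the adaptor gene Pstpip1 were lower, by 1.79 and 1.465 on the log2 scale with both libraries and by 1.39 and 1.59 without replicate A, and the exchange factor gene Arhgef1 was the next lowest of them. In Day12M against Day12 cells 0 of the 113 were called in edgeR, with 1 at an unadjusted p under 0.05, against 2 and 309 of all 13652 genes.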

How the data were processed

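The authors deposited raw read counts per gene for each library, with Entrez gene numbers and gene lengths, per the file headers. Viable cells were sorted, RNA was purified with RNeasy Plus kits and sequencing ran on the Illumina NextSeq500, per the labels' protocols. The submitters' processing notes name featureCounts, edgeR, limma and mm10, and the aligner is not stated there. Every one of the 13652 genes exceeds 0.5 CPM in at least 3 libraries. Gene names came from a RefSeq GRCm38.p6 table, which matched 13216 of them.

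Libraries were scaled by TMM and tested with edgeR 4.0.16 in R 4.3.3 (robust quasi-likelihood fit, 1 mean per group over 16 libraries, 8 residual degrees of freedom, biological coefficient of variation 10.9%). Called means an adjusted p under 0.05 (Benjamini-Hochberg, over all genes). There were 12 comparisons, 4 of them main. RPKM used the deposited gene lengths. Ratios of few reads have exact 95% intervals, which cover counting error only. No gene was removed by a filter.

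Other settings tried were filterByExpr (which removed 0 genes), a mean of at least 1 CPM, scaling by RLE or by library size alone, DESeq2 1.42.0, limma-voom (limma 3.58.1), the replicate letter as a block, fits of only the libraries compared, and fits with 1 library left out; 1 of these, the shared fit without Day12-12 replicate A, was added after seeing the data. On counts simulated for Day12 against Day0 over 13652 genes, the fit recovered 38.8% of 67 genes changed 1.5-fold, 97.0% of 67 changed 2-fold and 97.0% of 66 changed 4-fold, with 10 false calls among 165.

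All listed genes found are reported. Spi1 and Itgam served as checks. Of other pathway genes, the 3 largest rises and falls among called genes at a mean of at least 10 CPM were named per main comparison. The genes and lists were chosen with earlier results of these data known.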

Additional observations from a re-analysis of the deposited data

How the results depend on the processing

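With only the libraries compared in the fit, the genes called of the 47 were 11 in Day12-12 against Day0, 3 in Day12M against Day12, 5 in Day8 against Day4, 28 in Day12 against Day8, 28 in Day12-8 against Day12-4 and 0 in Day12-12 against Day12-8. Of all 13652 genes, these fits called 2198, 318, 2929, 3427, 4096 and 0, in that order. Library size alone gave 3 in Day12 against Day8, and DESeq2 gave 10 in Day12-12 against Day12-8, where 254 and 1195 of all genes were called. Leaving out single libraries gave 43 to 45 in Day12 against Day0, 39 to 45 in Day12-12 against Day12, 21 to 28 in Day12-12 against Day0, 2 to 8 in Day8 against Day4, 1 to 14 in Day12 against Day8, 9 to 29 in Day12-8 against Day12-4, 1 to 26 in Day12-12 against Day12-8, 22 to 40 in Day12-4 against Day0 and 11 to 26 in Day12-8 against Day0. The high ends came without Day12-12 replicate A, except 28 in Day12-12 against Day0 and 26 in Day12-12 against Day12-8, which came without replicate B of that group. The low ends came without Day4 replicate B or Day8 replicate A (2), Day8 replicate A (1, and 2 without Day8 replicate B or either Day12 library), either Day12-8 library (9 and 1), Day12-4 replicate B (22) and Day12-8 replicate B (11, and 13 without Day12-8 replicate A or Day0 replicate B). Either Day12-4 library left out gave 11 in Day12-8 against Day12-4. A library alone in its group is assumed to vary like the other groups. Lmna in Day12-12 against Day12 was -0.523 without replicate A and 0.362 without replicate B on the log2 scale. The number of all genes called also changed when single libraries were left out, so these ranges are not results about the 47 genes. The cause of these shifts was not tested.

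The replicate block gave 45 calls in Day12 against Day0, 40 in Day12-12 against Day12, 25 in Day12-12 against Day0, 0 in Day12M against Day12 and 9 in Day12-12 against Day12-8. Of all 13652 genes, it called 8806, 9038, 6184, 3 and 987, in that order. Differences between A and B correlated over 0.1 in 8 of 28 pairs of groups (range -0.091 to 0.264). These values do not settle whether the letters pair the samples. Library size alone moved the median log2 fold change of all genes to -0.204 in Day12 against Day0 (main -0.069) and to 0.106 in Day12-12 against Day12 (main 0.002), and no called member changed direction. Lsp1 and Evl rest on few reads outside the Dox groups.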
